A study of Mus musculus with 102 samples.

Results

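Late loss of DNA methylation was followed at 388 CpGs, in 62 short amplicons, between day 17 and day 29 after the Dnmt3a and Dnmt3b genes had been deleted in mouse embryonic stem cells without TET proteins. The CpGs were all those of the 405 CpGs in the amplicon table that had a level in each of the 6 samples compared. The other 17 CpGs, 7 in FMR9 (Acot7), 6 in LMR16 (Cradd) and 4 in LMR73 (Trak1), lacked a level in at least 1 of these samples and entered no comparison. The 6 samples were 3 replicates of Cre-treated TTKO cells at day 17 and 3 at day 29, out of 102 samples in the series.

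TTKO is a triple knockout of Tet1, Tet2 and Tet3, made as a single clone in a C57BL6/J line whose Dnmt3a and Dnmt3b catalytic exons are flanked by loxP sites. Transduction with Cre recombinase protein removes these exons, and the samples carry the label Dnmt3a/3b catalytic dead. Mock-treated TTKO cells, which keep both enzymes, received only the buffer in which Cre had been dialysed. Cre-treated WT cells carry the same Dnmt3a and Dnmt3b deletion in the parental line, where the Tet genes are intact, and non-transduced cells were taken at day 0. Deletion was not complete in every cell, so a level is a mean over deleted cells and any cells that escaped. Each of these groups has 3 replicates at each time. The study's methods treat them as biological replicates, each followed over the whole time course.

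Methyl groups at CpGs are added without a template mainly by DNMT3A and DNMT3B and copied to the new strand after replication mainly by DNMT1. TET proteins oxidise 5-methylcytosine and so open a route of active removal. A TTKO cell with both Dnmt3 genes deleted lacks the TET proteins and active DNMT3A and DNMT3B. The amplicons were chosen by region type: UMRs are unmethylated, mostly CpG-rich regions, LMRs are distal regulatory regions of low methylation, and FMRs are fully methylated regions. LMRs were further split into constitutive ones, those with CTCF or REST, and those specific to ES cells or to neuronal progenitors (NP). CTCF and REST are sequence-specific DNA-binding proteins.

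At day 0 the mean level was 4.61% over UMR CpGs, 86.7% over FMR CpGs and 90.8% over NP-specific_LMR CpGs. Among the other LMR types the means were 62.9% over Constitutive_LMR, 49.2% over ES-specific_LMR, 33.2% over Constitutive_LMR-CTCF and 19.3% over Constitutive_LMR-REST CpGs. The ES-specific_LMR28 amplicon, in the coding sequence of Zbtb20, stood at 96.2%. Depth was similar across the 6 samples, with 2404303 to 2890441 reads over the CpGs and a median of 4171 to 5480 reads per CpG.

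The stretches printed first are of 3 amplicons whose neighbouring CpGs differed in level late in the time course. Each is the plus strand of mm9, 5′ to 3′, with the measured CpGs in capitals. The first lies in an intron of Fgfr2, a receptor tyrosine kinase for fibroblast growth factors (chr7:138970021-138970185), the second about 51 kb from 4931440P22Rik (chr3:65259955-65260060), and the third across a coding exon and intron of Slx1b, a subunit of a structure-specific endonuclease (chr7:133835966-133836198).
NP-specific_LMR43: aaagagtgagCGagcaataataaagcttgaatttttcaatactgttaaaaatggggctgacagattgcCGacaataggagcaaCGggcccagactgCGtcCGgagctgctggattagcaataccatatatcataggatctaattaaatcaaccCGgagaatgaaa
LMR38: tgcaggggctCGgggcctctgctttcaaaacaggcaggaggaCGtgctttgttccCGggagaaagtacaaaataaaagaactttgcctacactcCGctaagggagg
ES-specific_LMR27: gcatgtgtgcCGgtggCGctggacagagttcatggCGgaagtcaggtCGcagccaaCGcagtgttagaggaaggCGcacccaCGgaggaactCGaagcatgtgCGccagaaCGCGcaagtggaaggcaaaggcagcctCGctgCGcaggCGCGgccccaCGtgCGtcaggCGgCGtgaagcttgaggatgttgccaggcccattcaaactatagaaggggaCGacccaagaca

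The mean methylation level in Cre-treated TTKO cells was lower at day 29 than at day 17. The mean level over the 388 CpGs was 28.2%, 29.1% and 29.8% in the day 17 replicates and 24.8%, 24.7% and 24.4% in the day 29 replicates. The groups did not overlap, and the difference was -4.42 percentage points (exact permutation p = 0.1, two-sided, below which 3 against 3 replicates cannot go). The mean at day 29 was lower than at day 17 for 364 CpGs and higher for 24, of which the largest gain was 4.07 percentage points.

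Per CpG, 50 of 388 (12.9% of those tested) were lower at day 29 in a quasi-binomial model with limma's moderated dispersion and Benjamini-Hochberg adjustment, and 0 were higher. At an unadjusted p under 0.05 the same model gave 123 lower and 0 higher, and limma on log2 odds called 29 lower and 0 higher. With the replicate number as a block, 20 CpGs were lower and 0 higher, 19 of them among the 50, and with the spread of all 39 TTKO samples 20 of 330 were lower. The 50 CpGs lay in 26 amplicons. The replicates of both days did not overlap at 161 CpGs that were lower (41.5%) and at 0 that were higher. The count of calls rested on single samples: it was 70 without day 17 replicate 1, 28 without day 17 replicate 2, 27 without day 17 replicate 3, 7 without day 29 replicate 1, 16 without day 29 replicate 2 and 0 without day 29 replicate 3, where 86 had an unadjusted p under 0.05. With the reads of each amplicon summed, 32 of 62 amplicons (51.6%) were lower and 0 were higher.

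**Figure D1:**
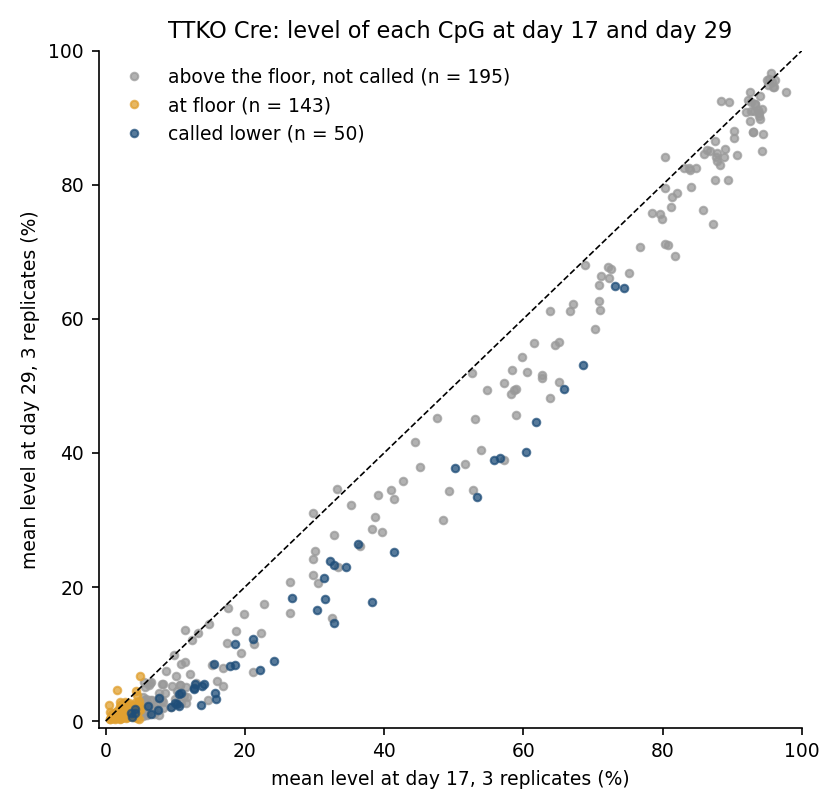
Mean methylation level (%) of each of the 388 CpGs at day 17 (x axis) and day 29 (y axis) in Cre-treated TTKO cells, each the mean of 3 replicates, with the dashed line at equal levels. The 50 CpGs called lower (blue) lie under the line from 3.61% to 74.5% at day 17, the 143 CpGs under 5% at day 17 that were not called (orange) sit in the lower left corner, and no CpG above 74.5% at day 17 was called.

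Of the 388 CpGs, 50 were called lower, 143 (36.9%) were at a floor, defined as under 5% at day 17 and not called, and 195 (50.3%) were above the floor and not called. With the floor set at 2% the last 2 counts were 44 and 294. CpGs at the floor went from a mean of 2.64% at day 17 to 1.36% at day 29. Those above the floor and not called went from 49.0% to 43.8%, so that a missing call does not show a stable level. Replicates did not overlap between the days at 72 of these 195 CpGs, against 161 of all 388 (41.5%). The threshold of 5% had values close to it on both sides: Constitutive_LMR-REST77 CpG 3 (Cacna1a) was at 4.98% at day 17 and ES-specific_LMR27 CpG 8 (Slx1b) at 5.01%. Of the 174 CpGs under 20% at day 0, 140 were at the floor and 10 were called lower. Of the 214 CpGs at 20% or more at day 0, 3 were at the floor, 40 were called lower and 171 were above the floor and not called.

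**Figure D2:**
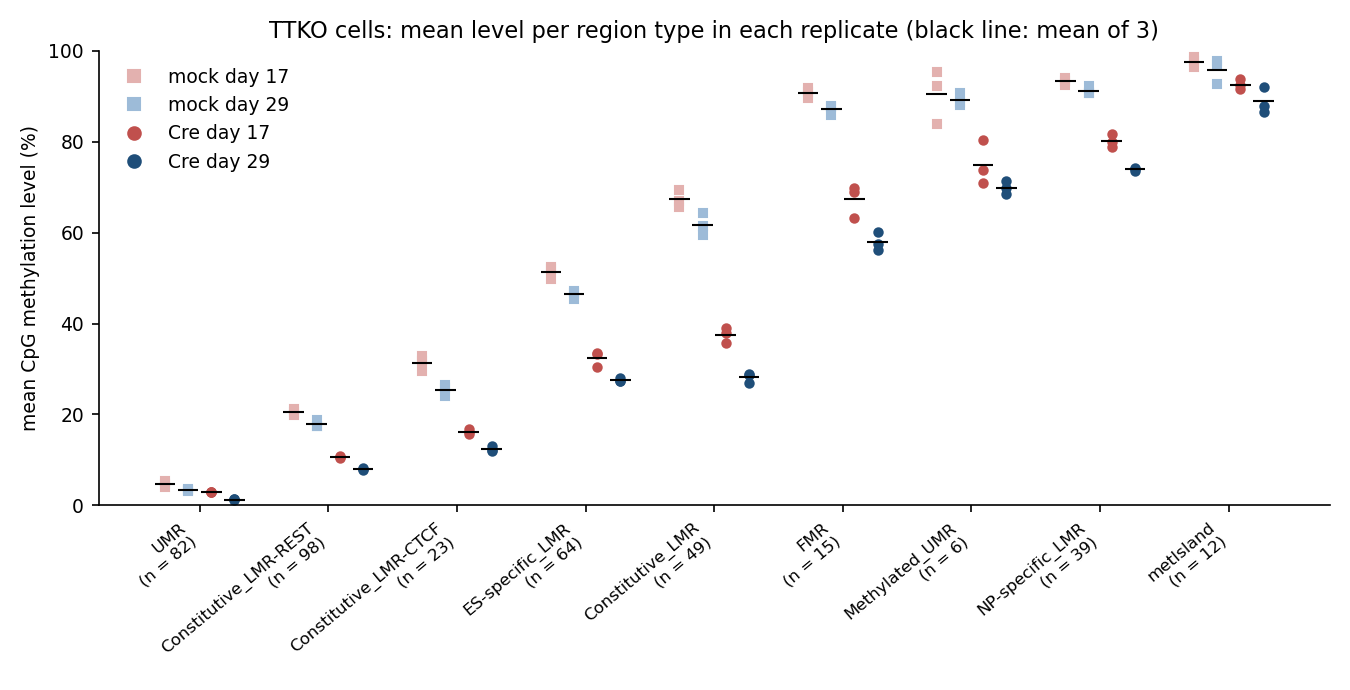
Mean methylation level (%) over the CpGs of each region type in every replicate of TTKO cells, mock-treated (squares) and Cre-treated (circles), at day 17 and day 29, with black lines at the mean of 3. In Cre-treated cells the replicates of both days are apart in all region types except Methylated_UMR and metIsland, and the step is -9.46 percentage points in FMRs and -1.63 in UMRs. The mock squares were computed over CpGs with a level in all 12 samples, which leaves 15 of the 23 Constitutive_LMR-CTCF CpGs.

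Fully methylated regions and constitutive LMRs had the largest late differences. Over the 15 FMR CpGs the day 17 replicates were at 63.3%, 69.0% and 69.9% and the day 29 replicates at 60.2%, 57.4% and 56.2%, a difference of -9.46 percentage points. Over the 49 Constitutive_LMR CpGs they were at 35.7%, 37.9% and 39.01% at day 17 and at 29.0%, 28.7% and 26.8% at day 29, a difference of -9.34. In both types all day 29 replicates lay under all day 17 replicates (exact permutation p = 0.1, adjusted over 9 region types 0.129). Of the CpGs in these types, 5 of 15 and 12 of 49 were called lower, against 12.9% of all CpGs tested. The FMR4 amplicon held 3 of the 5 FMR calls.

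In ES-specific LMRs 18 of 64 CpGs (28.1%) were called lower, against 33.3% of FMR CpGs and 12.9% of all CpGs tested, with means of 32.4% ± 1.71 (SD, n = 3) at day 17 and 27.5% ± 0.433 (SD, n = 3) at day 29. The 18 calls lay in 4 amplicons, with 10 in ES-specific_LMR27 and 6 in ES-specific_LMR34, so many were at neighbouring CpGs. The mean change of this type was -4.86 percentage points with Cre and -4.95 in mock-treated cells. REST and CTCF sites were lower at the start of the interval. The 98 Constitutive_LMR-REST CpGs went from 10.7% ± 0.235 to 8.04% ± 0.195 with 6 calls, and the 23 Constitutive_LMR-CTCF CpGs from 16.2% ± 0.539 to 12.4% ± 0.660 with 2 calls, which is 6.12% and 8.70% of their CpGs. At REST sites 50 of the 98 CpGs were at the floor at day 17, and at CTCF sites 10 of 23, against 36.9% of all CpGs. The floor CpGs of these types had begun low, with day 0 means of 6.25% at REST and 13.0% at CTCF sites. As a share of the day 17 level, REST and CTCF sites kept 74.96% and 76.5%, close to the 75.1% of constitutive LMRs, which were higher at day 17.

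The regions with the highest levels kept the most. The 39 NP-specific_LMR CpGs were at 80.01%, 78.8% and 81.8% at day 17 and at 73.6%, 74.0% and 74.3% at day 29, which is 92.2% of the day 17 level. Their groups did not overlap, and 3 of 39 CpGs (7.69%) were called lower, against 12.9% of all CpGs. The single metIsland amplicon, 12 CpGs in the coding sequence of AU022751, kept 96.0% (92.6% ± 1.06 at day 17, 88.9% ± 2.90 at day 29), and the single Methylated_UMR amplicon, 6 CpGs near the tubulin gene Tuba3a, kept 93.2% (74.9% ± 4.84 and 69.8% ± 1.43). In these last 2 types the replicates of the days overlapped (exact permutation p = 0.2, adjusted 0.2) and no CpG was called.

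UMRs were at their floor by day 17 but still read lower at day 29. The 82 UMR CpGs were at 2.97%, 2.89% and 2.93% at day 17 and at 1.36%, 1.34% and 1.20% at day 29, a difference of -1.63 percentage points. The days did not overlap, 75 of the 82 CpGs were at the floor, and 4 of the 82 (4.88%) were called lower, a smaller share than the 12.9% of all CpGs. With reads summed, 8 of 9 UMR amplicons were called lower, against 51.6% of all amplicons. Mock-treated cells had a step of similar size at low CpGs: the 90 CpGs under 5% at day 0, UMR CpGs among them, went from 2.50% to 1.08% in Cre-treated cells and from 2.93% ± 0.431 to 1.82% ± 0.140 in mock-treated cells. Over the whole time course the level of such CpGs moved up and down. For the 84 of them with a level in every sample the mean was 3.00% before transduction. On days 4, 8, 10, 13, 17 and 29 after Cre it read 1.69%, 2.34%, 1.55%, 1.95%, 2.51% and 1.07%. In the pooled SureSelect capture of TTKO cells, a second assay without replicate values, 71 UMR CpGs with amplicon values of 2.80% at day 17 and 1.27% at day 29 had capture levels of 1.35% and 1.18%, and 34 of the 71 were lower at day 29, against 166 of all 253 CpGs covered by both assays. The part of the measurement's own background in the step was not tested.

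**Figure D3:**
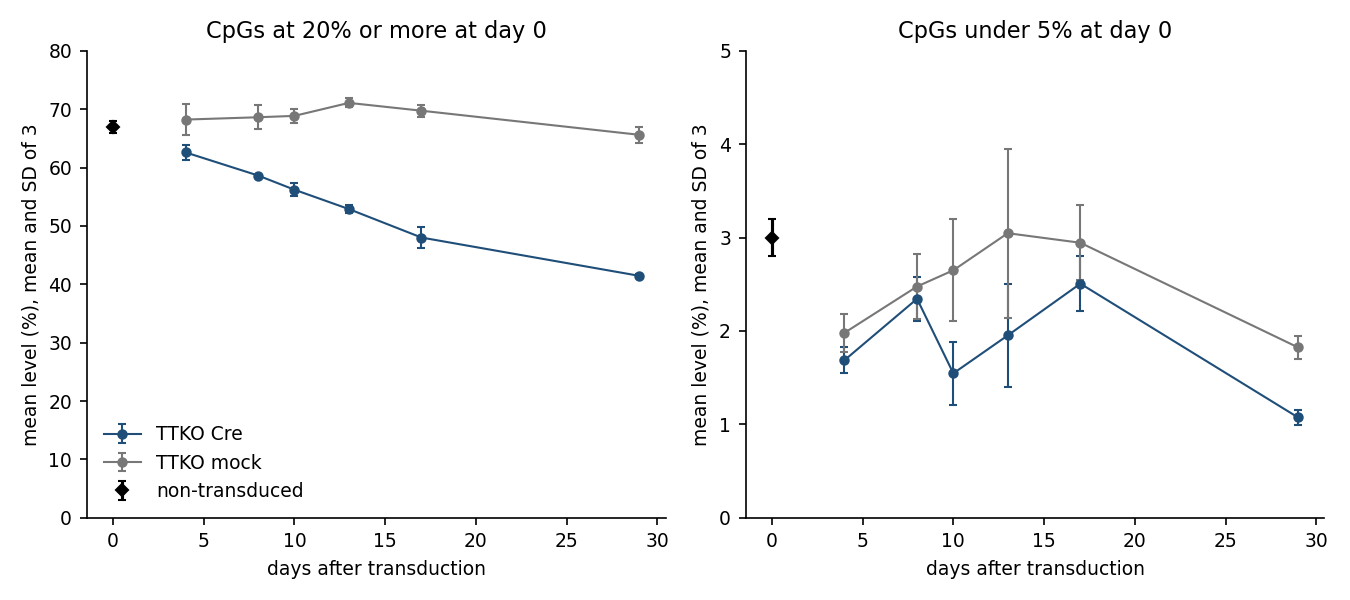
Mean methylation level (%) against days after transduction in TTKO cells, for CpGs at 20% or more at day 0 (left) and under 5% at day 0 (right, with an axis to 5%), with points and bars as mean and SD of 3 replicates. On the left, Cre-treated cells descend from 62.6% at day 4 to 41.4% at day 29, while mock-treated cells are at 71.1% at day 13, 69.7% at day 17 and 65.6% at day 29 (mock means over 181 to 186 CpGs, since some lack a mock level). On the right, both arms drop between day 17 and day 29 after moving in no single direction.

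Among the CpGs called lower, the largest losses in percentage points came from CpGs that began at 75% or more. At LMR38 CpG 4 (chr3:65260049) the day 17 replicates were at 33.9%, 43.7% and 37.4% and the day 29 replicates at 19.7%, 17.4% and 16.3%. This CpG fell by 20.5 percentage points, with a log2 odds ratio of -1.50 ± 0.20 (SE, limma-moderated adjusted p = 0.0092), and the days did not overlap. Only without day 29 replicate 3 was it not called (adjusted p = 0.0591). The short stretches around this and the other 4 CpGs of the list, chosen as the largest called losses with at most 1 per amplicon, follow with the CpG in capitals.
LMR38 CpG 4: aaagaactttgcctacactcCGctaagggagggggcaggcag
NP-specific_LMR43 CpG 1: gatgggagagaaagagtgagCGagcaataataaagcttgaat
LMR24 CpG 5: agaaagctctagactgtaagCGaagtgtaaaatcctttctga
FMR4 CpG 2: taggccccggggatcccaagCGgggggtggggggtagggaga
NP-specific_LMR44 CpG 5: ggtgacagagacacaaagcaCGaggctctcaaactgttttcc

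NP-specific_LMR43 CpG 1, in the Fgfr2 intron (chr7:138970031), was at 57.2%, 62.7% and 61.2% at day 17 and at 38.9%, 41.5% and 40.3% at day 29. It fell by 20.2 percentage points (log2 odds ratio -1.20 ± 0.22, adjusted p = 0.0167 with limma's moderation), in a narrow band of replicates at each day. LMR24 CpG 5 (chr3:65259581) was at 54.4%, 51.7% and 54.0% and then at 39.3%, 30.4% and 30.6% (log2 odds ratio -1.17 ± 0.26, adjusted p = 0.0325). FMR4 CpG 2 (chr6:113705585), in an intron of Atp2b2, which encodes a plasma membrane calcium pump, was at 53.9%, 55.8% and 60.2% and then at 40.5%, 38.9% and 38.2% (log2 odds ratio -0.98 ± 0.19, adjusted p = 0.0212). The days did not overlap at these CpGs, which were picked as large called losses from the same samples. The same held at 49 of the 50 called CpGs. Leaving out single samples ended each of these calls: without day 29 replicate 1, 2 or 3 for all 3 CpGs, without day 17 replicate 3 for the Fgfr2 and LMR24 CpGs and without day 17 replicate 2 for LMR24, with adjusted p up to 0.0894, 0.114 and 0.106 respectively. All 3 calls were also lost with the replicate block (limma-moderated adjusted p = 0.0566, 0.0686 and 0.0686) and with limma on log2 odds (0.0552, 0.0723 and 0.0764). NP-specific_LMR44 CpG 5 (chr1:38493551), in an intron of the nuclear factor gene Aff3, was at 58.03%, 53.0% and 56.2% and then at 42.9%, 38.6% and 35.6% (log2 odds ratio -0.97 ± 0.15, adjusted p = 0.0092, and 0.0591 without day 29 replicate 3 and 0.0787 with limma on log2 odds).

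Mock-treated cells at these 5 CpGs were between 68.7% and 90.7% at day 17 and between 68.3% and 87.5% at day 29. The change in Cre-treated cells was not called different from that in mock-treated cells at any of the 5 (interaction term of the same limma-moderated model, adjusted p from 0.182 to 0.935). For the 3 CpGs that the capture assay also covered, LMR38 CpG 4, LMR24 CpG 5 and FMR4 CpG 2, its pooled levels were 36.2%, 35.6% and 49.1% at day 17 and 13.3%, 21.6% and 33.6% at day 29.

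A block of 3 adjacent amplicons about 51 kb from 4931440P22Rik, with 5, 1 and 4 CpGs, held 6 of the 50 calls, where 12.9% of all CpGs were called. LMR24, LMR35 and LMR38 lie between chr3:65259461 and chr3:65260049, so their CpGs are neighbours of a single region and not separate regions. As amplicons, LMR24 fell from 45.6% to 31.6%, LMR35 with a single CpG from 41.4% to 25.2%, and LMR38 from 21.4% to 8.19% (adjusted p of 0.0041, 0.0050 and 0.0012 with summed reads and limma moderation). Within LMR38 the CpGs fell to different depths. CpG 2 was at 14.3%, 17.0% and 16.3% at day 17 and at 3.83%, 3.32% and 2.53% at day 29, near the level of UMRs, while CpG 4 on the same amplicon was still at 17.8%.

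LMR38 CpG 2 was also the 1 of 380 CpGs (0.263%) whose late change differed between Cre-treated and mock-treated cells. In mock-treated cells it was at 44.5% at day 17 and 42.5% at day 29, and the ratio of the odds ratios was -2.29 on the log2 scale (limma-moderated adjusted p = 0.0015, and from 0.0020 to 0.0360 over the alternatives). It is described because it was called, and lies outside the rule for named CpGs. With reads summed per amplicon, a test chosen after the data were seen, 4 of 61 amplicons (6.56%) had a larger late decrease of the odds in Cre-treated cells and 0 a smaller one. They were ES-specific_LMR27 (Slx1b), LMR38, UMR20 near Dgcr6 and UMR18 near Id3, which encodes an inhibitor of helix-loop-helix transcription factors. In percentage points the UMR18 change was -2.15 with Cre, from 3.76%, and -2.58 in mock, from 10.7%, so the difference there was on the odds scale alone.

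**Figure D4:**
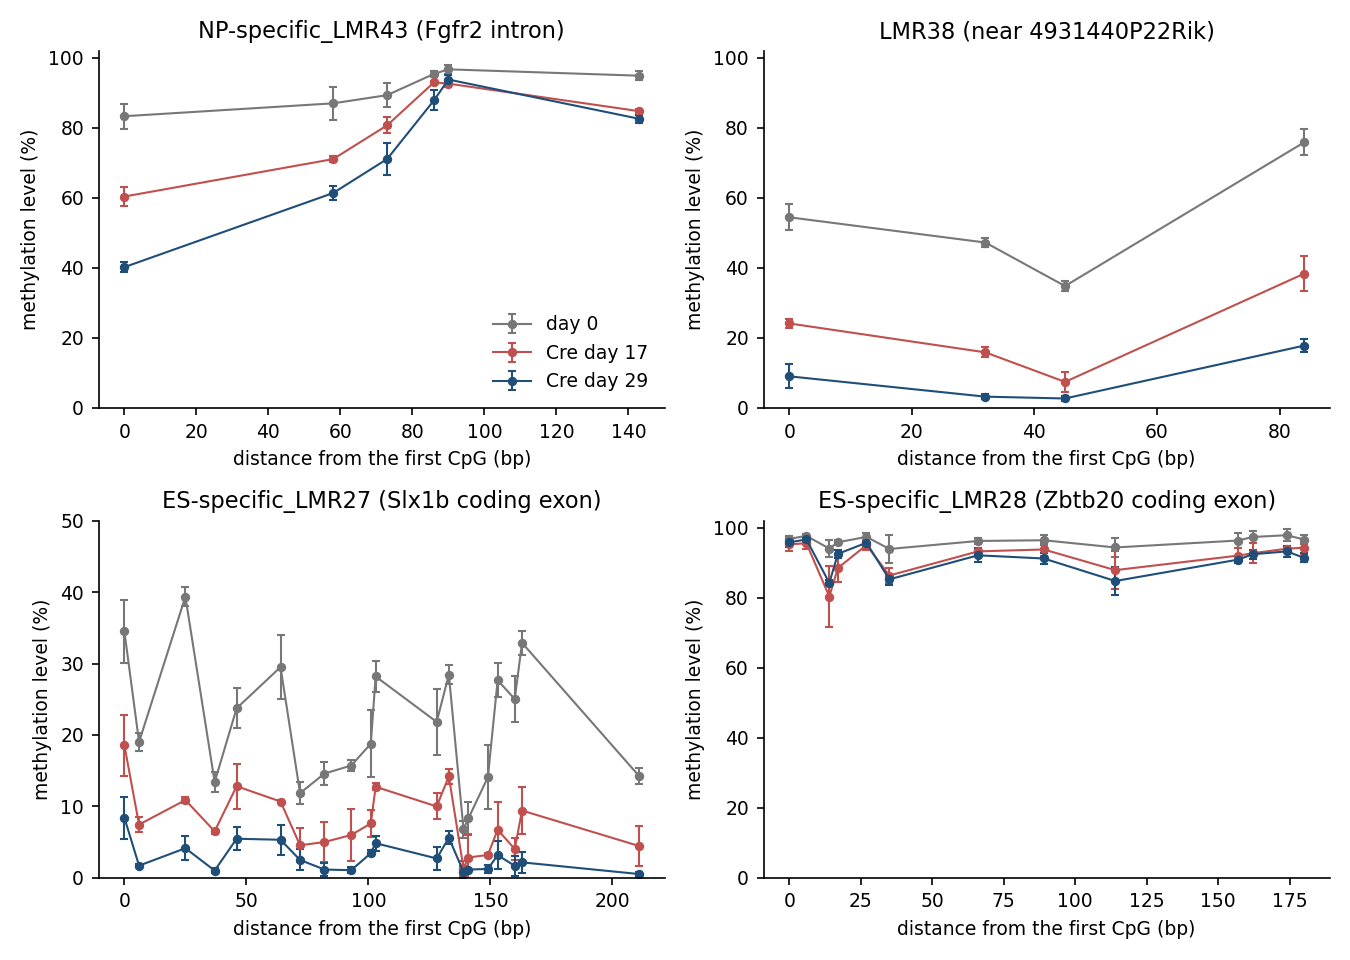
Methylation level (%) along 4 amplicons against distance from their first CpG (bp), at day 0 in non-transduced cells and at days 17 and 29 in Cre-treated TTKO cells, with points and bars as mean and SD of 3 replicates; the axis of ES-specific_LMR27 ends at 50%. Along NP-specific_LMR43 the step from day 17 to day 29 is from 60.4% to 40.2% at the first CpG, with no decrease at the fifth, LMR38 and ES-specific_LMR27 are lower at day 29 at every CpG, and ES-specific_LMR28 stays above 80%.

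In the Fgfr2 amplicon, CpG 1, which was called lower, and CpG 5, which was not called, lay 90 bp apart. Both were picked by ranking these same values, so the contrast between them is a description. Its CpG 5 (chr7:138970121) was at 93.6%, 91.7% and 92.5% at day 17 and at 93.0%, 95.4% and 93.0% at day 29. Between CpG 1 and CpG 5 the share of the day 17 level that was kept was higher from each CpG to the next, at 66.6%, 86.4%, 88.1%, 94.5% and 101.3%, and 97.4% was kept at CpG 6. Such spreads were common. In the 26 amplicons with at least 3 CpGs at 20% or more at day 17, the share kept differed within an amplicon by 6.30 to 57.4 percentage points, with a median spread of 20.7. The widest were in LMR40 near the collagen gene Col1a1 (34.4% to 91.8% over 10 CpGs) and in ES-specific_LMR33 in Zfp704 (34.7% to 91.5% over 7 CpGs), and the narrowest was in FMR4 in Atp2b2 (69.2% to 75.5% over 4 CpGs).

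The CpGs that kept the most were read from a ranking of the same values, so their shares are given as a description. The 5 CpGs at 50% or more at day 17 with the largest share kept, at most 1 per amplicon, follow with the CpG in capitals.
ES-specific_LMR28 CpG 3: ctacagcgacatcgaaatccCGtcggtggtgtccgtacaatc
NP-specific_LMR47 CpG 4: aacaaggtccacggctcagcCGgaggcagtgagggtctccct
NP-specific_LMR43 CpG 5: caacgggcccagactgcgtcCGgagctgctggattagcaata
NP-specific_LMR37 CpG 9: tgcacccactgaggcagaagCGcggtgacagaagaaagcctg
metIsland21 CpG 10: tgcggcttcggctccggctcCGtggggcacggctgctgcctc

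In Zbtb20, which encodes a zinc finger transcriptional repressor, CpG 3 (chr16:43609668) was at 70.8%, 88.3% and 81.8% at day 17 and at 85.1%, 83.9% and 83.6% at day 29. The day 17 replicates spread over more than the difference between the days, and its share kept of 105% was 99.0% without day 17 replicate 1 and 110% without day 17 replicate 2. Over the whole 13-CpG amplicon the means were 89.5%, 92.4% and 92.3% and then 91.4%, 91.4% and 90.9%, and no CpG was called. NP-specific_LMR47 CpG 4 in Scube1, a gene for a secreted and cell surface protein, was at 85.0%, 93.1% and 90.6% and then at 92.7%, 91.8% and 92.6%. NP-specific_LMR37 CpG 9, about 190 kb from the homeobox gene Irx4, went from 92.3% ± 2.39 to 92.6% ± 2.13 (SD, n = 3), and metIsland21 CpG 10 in AU022751 from 95.2% ± 2.28 to 94.9% ± 2.07. None of these 5 CpGs was called in either direction, and each had day 17 and day 29 replicates that overlapped.

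The capture assay did not show the same at metIsland21. Its 12 CpGs were at 92.6% at day 17 and 88.9% at day 29 in the amplicons, and at 82.6% and 85.9% in the pooled capture, where 0 of 12 were lower at day 29. Over all 253 CpGs that both assays covered, the mean change was -4.06 percentage points in the amplicons and -2.12 in the capture. At the 38 of them called lower, it was -9.99 and -5.29, and 35 of 38 were lower at day 29 in the capture, against 166 of 253. The capture columns join replicates, so no test was made on them.

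Some CpGs that were methylated at day 0 were at low levels by day 29. The lowest among those at 50% or more at day 0, at most 1 per amplicon, was LMR40 CpG 10 near Col1a1 (chr11:94734426), at 56.5% at day 0, at 16.3%, 15.1% and 12.9% at day 17 and at 4.79%, 1.55% and 3.34% at day 29. The days were apart, but the adjusted p of 0.0637 (limma-moderated model) missed the threshold, at a coverage of 841 to 1328 reads. LMR23 CpG 4 near 3830408C21Rik was at 65.5% at day 0, at 15.5%, 14.97% and 22.9% at day 17 and at 7.98%, 6.95% and 9.72% at day 29, and was called (adjusted p = 0.0334 by the limma-moderated test). The call was lost without day 17 replicate 3 or any one of the day 29 replicates, with adjusted p up to 0.115, and with the spread of all 39 TTKO samples (adjusted p = 0.207) or limma on log2 odds (adjusted p = 0.0764). LMR38 CpG 1 went from 54.4% at day 0 to 24.1% and 9.03% and was also called (adjusted p = 0.0125, and 0.0591 without day 29 replicate 3, limma-moderated).

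The other 2 CpGs of this list were at protein-bound sites. Constitutive_LMR-CTCF52 CpG 3, near 2700060E02Rik, began at 52.0% and read 19.5% ± 2.41, then 10.2% ± 2.52 on days 17 and 29 (SD, n = 3). Constitutive_LMR-REST74 CpG 1, near the monoamine transporter gene Slc29a4, was at 56.7%, 22.4% ± 2.07 and 13.2% ± 3.68. At both CpGs the days did not overlap and the adjusted p of the limma-moderated model was 0.0781 and 0.221. No CpG at 50% or more at day 0 was at the floor by day 17.

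Slx1b held more calls than any other amplicon. All 20 CpGs of ES-specific_LMR27 had a lower mean at day 29, as did 364 of the 388 CpGs tested. Of the 20, 10 were called, against 12.9% of all CpGs, and those 10 went together from 11.02% to 3.95%. The amplicon fell from 7.95% to 2.91% (log2 odds ratio -1.53, limma-moderated adjusted p = 1.58e-05). In Cre-treated WT cells the same amplicon went from 3.71% to 7.52%. Of the 382 CpGs compared between the lines, 10 (2.62%) fell more in TTKO than in WT cells and 1 (0.262%) fell less. All 10 were in ES-specific_LMR27, and they are described as the called CpGs and not by the rule for named CpGs. At its CpG 4, TTKO cells were at 6.16%, 6.62% and 6.75% at day 17 and at 0.759%, 0.833% and 1.46% at day 29, against 2.46% and 6.74% as WT means (ratio of odds ratios -4.29 on the log2 scale, limma-moderated adjusted p = 0.0086, and from 0.0017 to 0.0328 over the alternatives). The single CpG with the opposite difference was LMR40 CpG 2 near Col1a1, at 66.7% and 61.1% in TTKO cells and 18.03% and 2.24% in WT cells (adjusted p = 0.0481 with limma moderation). It was not called in any of the 12 fits that left out a sample, where its adjusted p was 0.0557 to 0.124. The count of 11 was 2 without TTKO day 29 replicate 1 and without WT day 17 replicate 1 or day 29 replicate 1, 3 without WT day 17 replicate 2, 4 and 6 without TTKO day 29 replicates 2 and 3, 7 without WT day 17 replicate 3, and 19 without WT day 29 replicate 2 or 3. With the replicate block it was 2. With reads summed per amplicon, chosen after the data were seen, 7 of 61 amplicons (11.5%) fell more and 3 (4.92%) fell less on the odds scale in TTKO cells. Between the same days WT cells on their own had 40 of 393 CpGs lower (10.2%) and 2 higher (0.509%), 125 lower (31.8%) and 13 higher (3.31%) without overlap, and 20 of 63 amplicons lower (31.7%) and 1 higher (1.59%). With the replicate block, 33 CpGs were lower and 1 higher in WT cells. Region means ran the other way at several sets of methylated CpGs, where the change was -6.25 percentage points in TTKO and -15.9 in WT cells at NP-specific LMRs, -5.12 and -15.2 at the Methylated_UMR amplicon, and -5.09 and -13.4 over CpGs at 80 to 100% at day 0. WT cells lost more in each of these sets when any single sample was left out, a choice made after the data were seen, though the TTKO change at the Methylated_UMR amplicon was then as low as -2.45, without day 17 replicate 3. Other sets had the larger loss in TTKO cells: -9.34 in TTKO and -4.63 in WT cells at Constitutive_LMR CpGs, -8.28 and -3.49 over CpGs at 40 to 60% at day 0, and -10.6 and -5.95 over CpGs at 60 to 80%. At FMRs the order rested on 1 library. The change was -9.46 in TTKO and -7.44 in WT cells, whose replicates at day 29 were at 39.1%, 40.9% and 52.6%. It was -11.6 in WT cells without the last of these and -4.88 without the first. These differences of means between the lines were not tested.

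In mock-treated cells, which keep DNMT3A and DNMT3B, the level also went down between these days. Over the 380 CpGs with a level in all 12 samples, mock replicates had a mean of 42.6% ± 0.688 at day 17 and 39.4% ± 0.722 at day 29 (exact permutation p = 0.1), a change of -3.18 percentage points, against -4.40 in Cre-treated cells. The change in Cre-treated cells exceeded that in mock-treated cells by -1.22 ± 0.749 percentage points (SE), which is within 2 standard errors of 0. Per CpG, 1 of 391 (0.256%) was called lower in mock-treated cells, 83 (21.2%) were lower and 1 higher without overlap, and 70 had an unadjusted p under 0.05. With the replicate block 0 of the 391 were called. Of 63 amplicons, 6 (9.52%) were lower in mock-treated cells and 0 were higher. The part of the late change that Cre-treated and mock-treated cells share was not separated from late loss that follows from the deletion.

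By region type, the Cre and mock changes are given side by side, since whether their difference varies between types was not tested. At NP-specific LMRs the change was -6.25 percentage points with Cre and -2.02 in mock, a difference of -4.22 ± 1.12 (SE), and at FMRs -9.46 and -3.67, a difference of -5.78 ± 2.52. These were differences in percentage points: on the odds scale no NP-specific_LMR or FMR amplicon was called different between the arms, and the signs were mixed (a log2 ratio of odds ratios of -0.65 at NP-specific_LMR45, 0.45 at NP-specific_LMR41, -0.33 at FMR4 and 1.14 at FMR6). At Constitutive_LMR CpGs the changes were -9.34 and -5.57, a difference of -3.76 ± 2.13, and at CTCF sites, over 15 CpGs, -3.08 and -5.98, a difference of 2.90 ± 1.48, both within 2 standard errors of 0. At REST sites they were -2.68 and -2.64 and at ES-specific LMRs -4.86 and -4.95, differences of less than their standard errors.

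Among CpGs at 20% or more at day 0, the relative loss was larger in classes that began lower. From day 17 to day 29 the CpGs at 20 to 40% at day 0 kept 52.5% of their day 17 level, those at 40 to 60% kept 62.1%, those at 60 to 80% kept 76.2% and those at 80 to 100% kept 93.7%. Counted from day 0, 36.1% ± 1.73, 44.6% ± 2.79, 62.2% ± 4.77 and 87.7% ± 1.76 of the level was left at day 17 (SD over 3 replicates, with the day 0 mean as the base). At day 29 the remaining shares were 18.9% ± 0.669, 27.7% ± 1.87, 47.4% ± 1.95 and 82.2% ± 0.364. In percentage points the order was different, with the largest difference, -10.6, at CpGs of 60 to 80% at day 0. Mock-treated cells had the same order over these classes, with 81.4%, 85.1%, 95.6% and 97.8% of the day 17 level kept. In percentage points the mock change was -6.17 at 20 to 40% and -8.40 at 40 to 60%, against -5.25 and -8.03 with Cre over the same CpGs. At 60 to 80% the change was -10.6 with Cre and -3.23 in mock, a difference of -7.33 ± 2.71 (SE), and at 80 to 100% it was -5.11 and -2.03, a difference of -3.09 ± 1.22. Calls were made at 13 of 49 (26.5%), 9 of 29 (31.0%), 11 of 40 (27.5%) and 7 of 96 CpGs (7.29%) of these classes, against 12.9% of all CpGs.

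Across the 214 CpGs at 20% or more at day 0, in 44 amplicons, the share kept from day 17 to day 29 rose with the day 0 level (r = 0.734, rho = 0.744, a description over CpGs that share amplicons and libraries). It had no such relation to the number of CpGs within 100 bases (r = 0.0138), to GC content (r = -0.0875) or to the distance to the nearest start site (r = 0.0669 on the log10 scale). With 0, 1, 2, 3 and 4 A or T bases among the 4 bases that flank the CpG, the median share kept was 68.5%, 77.5%, 84.6%, 88.4% and 88.8%, over 18, 59, 93, 38 and 6 CpGs. Their mean day 0 levels were 57.4%, 69.1%, 68.0%, 69.7% and 84.6%, and the part of the day 0 level in this order was not tested.

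**Figure D5:**
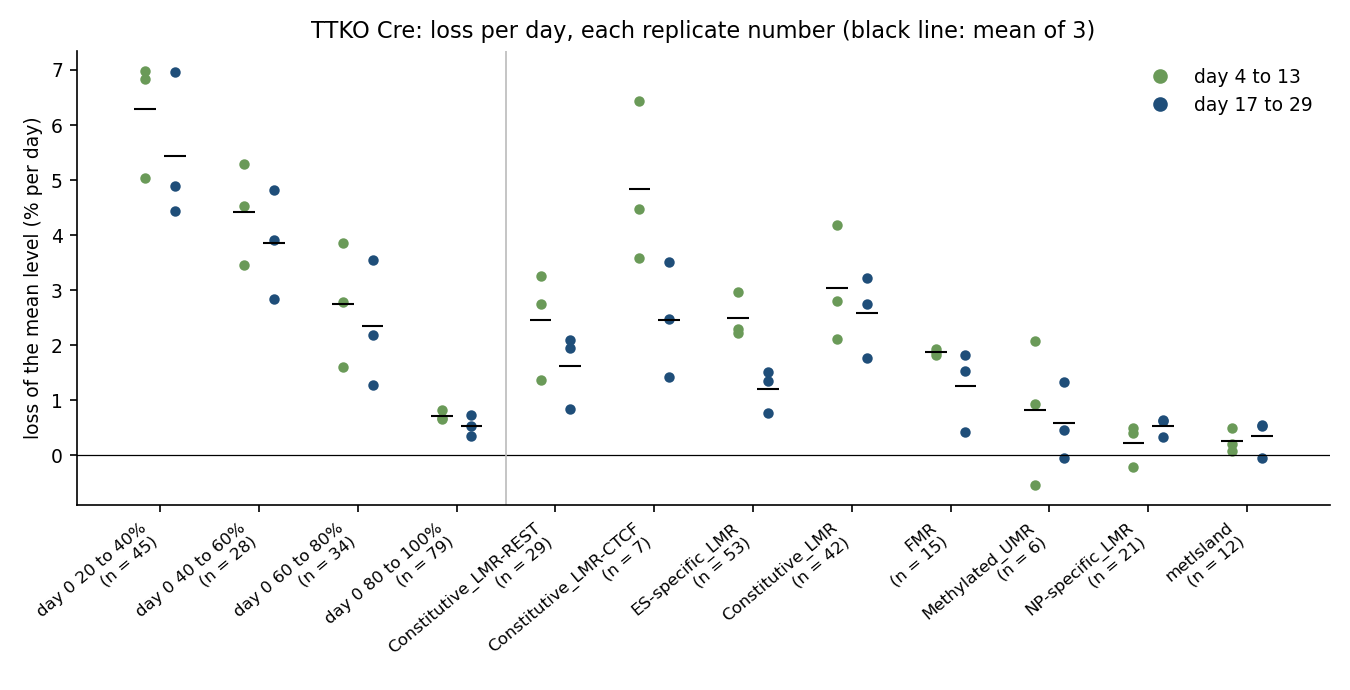
Loss of the mean level in percent per day between day 4 and day 13 (green) and between day 17 and day 29 (blue) in Cre-treated TTKO cells, by class of day 0 level (left of the line) and by region type (right), with a point for each replicate number and black lines at the mean of 3. Points of both intervals overlap in all classes of day 0 level, and rates decrease from the 20 to 40% class to the 80 to 100% class in both intervals.

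The late loss per day was set against that of the earlier part of the time course. Over 186 CpGs at 20% or more at day 0 with a level in every sample, the mean level decreased by 1.45%, 1.98% and 2.19% of itself per day from day 4 to day 13 and by 0.819%, 1.30% and 1.54% per day from day 17 to day 29, taken within replicate numbers. Within each replicate number the late rate was lower, by differences of -0.629, -0.676 and -0.651% per day (exact sign-flip p = 0.25, the smallest that 3 pairs allow). Without the pairing the values of both intervals overlapped (exact permutation p = 0.2). The mean difference of -0.652% per day moved with how it was taken: it was -0.113 as a median over CpGs, -0.383 over CpGs at 50% or more at day 0 and -0.998 with the background subtracted (exact permutation p of 0.8, 0.2 and 0.1). At ES-specific LMRs the earlier and late rates were 2.49% ± 0.410 and 1.21% ± 0.387 per day without overlap (exact permutation p = 0.1 over 3 replicates), and at constitutive LMRs 3.03% ± 1.05 and 2.58% ± 0.736 with overlap (exact permutation p = 0.6). CTCF sites, with 7 CpGs, had 4.83% ± 1.47 and 2.46% ± 1.05, and FMRs 1.88% ± 0.0587 and 1.26% ± 0.736, in both cases without overlap (exact permutation p = 0.1). REST sites had 2.46% ± 0.977 and 1.63% ± 0.686 with overlap (exact permutation p = 0.3). Within replicate numbers the late rate was lower in all 3 pairs at each of these types. The differences were -0.347, -0.0414 and -0.968 at constitutive LMRs and -0.531, -1.17 and -0.792 at REST sites. At NP-specific LMRs the loss was slow in both intervals, 0.229% ± 0.381 and 0.528% ± 0.172 per day, with differences of 0.829, -0.0758 and 0.145 within replicate numbers. In mock-treated cells the same measure was -0.317% ± 0.314 per day early, a small gain, and 0.502% ± 0.104 per day late, without overlap. The 45 CpGs called lower that had a level in every sample were at a mean of 43.9% before transduction and of 40.5%, 33.6%, 30.7% and 26.6% on days 4, 8, 10 and 13. The 186 CpGs at 20% or more at day 0 also went down over these days, from 66.9% to 62.6%, 58.6%, 56.2% and 52.9%.

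Region types also held amplicons at the ends of the range. Among amplicons with at least 3 CpGs and 5% or more at day 17, the largest and smallest differences were -13.9 (LMR24) and -3.94 percentage points (LMR46 in Akap6, an anchor protein of protein kinase A) among constitutive LMRs, -16.7 (FMR4) and -4.81 (FMR8 in Traf3, a signalling adaptor of TNF receptors) among FMRs, and -12.8 (NP-specific_LMR45 near the cell adhesion gene Cadm1) and -1.82 (NP-specific_LMR47) among NP-specific LMRs. LMR46, FMR8 and NP-specific_LMR47 were not called with reads summed, and their replicates overlapped between the days. At LMR46 the replicates were at 63.0%, 54.6% and 55.7% at day 17 and at 55.1%, 62.0% and 44.3% at day 29. NP-specific_LMR45 was not called (adjusted p = 0.102, limma-moderated), with replicates at 49.3%, 50.1% and 54.7% at day 17 and at 35.3%, 39.3% and 41.2% at day 29, which did not overlap. Among ES-specific LMRs the largest and smallest differences were -7.23 (ES-specific_LMR34 in Calhm2) and -0.209 (ES-specific_LMR28). At ES-specific_LMR34 6 of 11 CpGs were called, against 12.9% of all CpGs, and the change in mock-treated cells was -7.42. At REST sites the largest and smallest differences were -4.23 (Constitutive_LMR-REST80 in Armc8) and -2.33 (Constitutive_LMR-REST64), and at CTCF sites -5.17 (Constitutive_LMR-CTCF52) and -1.04 (Constitutive_LMR-CTCF50 near the apolipoprotein gene Apob). Replicates of Constitutive_LMR-CTCF50 overlapped, at 9.01%, 4.91% and 3.83% at day 17 and at 3.49%, 9.32% and 1.83% at day 29. UMR20 near Dgcr6 was the only UMR amplicon that met the rule, with 6.69% at day 17 and 1.70% at day 29.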

How the data were processed

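Amplicon bisulfite sequencing of 88 regions had been aligned by the authors to mm9 with Rbowtie in QuasR and called with AmpliconBiSeq. The deposited tables give, per CpG and sample, coverage as a count of reads and the level as a fraction, and the authors left out levels under 100 reads. Coverage times level was whole, within 0.0001, at 100% of values, so methylated read counts were used. The deposited SureSelect capture table gives levels as percent with replicates joined by the authors and was used only for side-by-side values; the authors' inferred rates and TET activities in it were not used. The files were taken without normalization. Samples were grouped by their labels.

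Each CpG was fitted with a quasi-binomial logistic model (0.5 added to each count, dispersion moderated with limma 3.58.1 in R 4.3.3, dispersion of at least 1), two-sided, with Benjamini-Hochberg adjustment over all CpGs tested and a threshold of 0.05. Differences between arms were interaction terms. For mean levels, exact permutation tests were used, two-sided (python 3.11.15, scipy 1.17.1), for which 3 against 3 give p = 0.1 at the least. In a simulation of this comparison over 388 CpGs with 200 changed by a log2 odds ratio of -1, 87 (43.5%) were recovered, with 4 false calls. The simulated CpGs were drawn independently with the same over-dispersion, without variation shared within an amplicon or a library. These counts hold for that setting only. CpGs were placed on NCBIM37, the same build as mm9, with GENCODE M1 annotation. Depth per sample was 2404303 to 2890441 reads. Without molecular identifiers, PCR copies of a molecule were counted as separate reads, so precision was taken from the replicates. The study's methods call these biological replicates and fit each over the whole time course. Counts of calls over all CpGs are therefore also given with the replicate number as a block, as are calls that it ended at CpGs named by the rule. Deviations of same-numbered samples at the 2 days did not correlate (r = 0.00819, -0.0728 and 0.00789). No 2 samples held the same values (correlations between replicates 0.984 to 0.993).

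Named CpGs were, at most 1 per amplicon, the 5 largest called losses, the 5 largest shares kept from 50% or more at day 17, the 5 lowest at day 29 from 50% or more at day 0, and called gains; named amplicons were the largest and smallest mean loss per region type with at least 3 CpGs and 5% at day 17. The CpGs, region types and lists were chosen with earlier results of these data known. Alternatives were a replicate block, a coverage minimum of 1000 reads, 0.1 added in place of 0.5, limma on log2 odds, a spread from all 39 TTKO samples, a minimum difference of 5 percentage points, other floors, the amplicon as the unit, and leaving out each sample.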

Additional observations from a re-analysis of the deposited data

Results flagged for a closer look

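The change from day 17 to day 29 differed between Cre-treated TTKO and Cre-treated WT cells at 11 CpGs, by the interaction term of the limma-moderated model. Of these, 10 were in ES-specific_LMR27 (Slx1b), where the level went down in TTKO cells and up in WT cells, and the other was LMR40 CpG 2 near Col1a1, which was not called when any sample was left out. At the level of amplicons, ES-specific_LMR27 changed by -5.04 percentage points in TTKO and 3.81 in WT cells.

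The change differed between Cre-treated and mock-treated TTKO cells at 1 CpG, LMR38 CpG 2, which was called in all 12 fits that left out a sample. UMR20 near Dgcr6 changed by -4.99 percentage points with Cre and by 0.449 in mock, and was called in that comparison only with reads summed per amplicon.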

How the results depend on the processing

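The 90 recomputed mean levels, overall and per region type, kept their direction, and none could pass 0.05 in designs of this size. The count of 50 CpGs lower was 20 with the replicate block, 29 with limma on log2 odds (17 of them among the 50), 20 of 330 with the spread of all 39 TTKO samples, 32 of 62 with amplicons as the unit, and 0 to 70 when single samples were left out. It was 50 with 0.1 added and 50 of 313 at 1000 reads, and no called CpG changed sign. The cause of these shifts was not tested. The replicate block left 1 CpG called between Cre and mock and 2 between TTKO and WT. Among CpGs named by the rule it ended the calls at NP-specific_LMR43 CpG 1, LMR24 CpG 5 and FMR4 CpG 2 and no other. With a floor under 2%, 44 CpGs were at the floor and 294 above it. The Cre to mock count of 1 was 4 of 61 with amplicons as the unit and 1 to 2 with samples left out, and the TTKO to WT count of 11 was 6 with limma on log2 odds and 2 to 19 with samples left out. The late minus the earlier loss per day was -0.652% per day and between -0.998 with the background subtracted and -0.113 as a median over CpGs. Of the 81 recomputed odds ratios of named CpGs, 53 stayed on their side of the threshold and 28 no longer passed it.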
